A study of Homo sapiens with 21 samples.

Results

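Transcripts of 10 genes at the output end of the Hippo pathway were followed through the differentiation of human iPSCs into cardiomyocytes and into UBE2B-/- cardiomyocytes. The genes are the coactivators YAP1 and WWTR1 (which encodes TAZ), the DNA-binding partners TEAD1, TEAD2, TEAD3 and TEAD4, and the target genes CCN1, CCN2, AMOTL2 and ANKRD1. They were chosen by name, and every row of the 6 deposited tables that carries one of these symbols was taken. All 10 genes have at least 1 listed transcript. The listed transcripts number 22, of the 71 that GENCODE release 44 annotates for these genes, and they fill 49 of the 36579 rows of the tables. Over all genes, 21537 transcripts of 11851 genes are listed at least once.

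In the Hippo pathway, the kinases STK3 and STK4 activate LATS1 and LATS2, which phosphorylate YAP and TAZ and hold them outside the nucleus. When the kinases are inactive, YAP and TAZ enter the nucleus and bind TEAD proteins, since neither contacts DNA on its own. The complex switches on genes such as CCN1 and CCN2, secreted matrix-associated proteins. In the heart, YAP with TEAD1 is known for driving the proliferation of fetal cardiomyocytes, and TEAD proteins also bind the promoters of muscle genes. Much of the control of YAP and TAZ is at the protein level, which RNA does not show.

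Poly-A RNA came from PGP1, an established human iPSC line, at the iPSC stage, at the stage of mesoderm (M), of cardiac mesoderm (CMes), of cardiac progenitors (CP) and of cardiomyocytes (CM), with 3 wild-type libraries at each of these 5 stages. CMs of 2 mutant lines, UBE2B-/-1 and UBE2B-/-2, gave 3 libraries each, for 21 libraries in all. Both lines descend from PGP1 and were made by CRISPR-Cas9 in separate experiments from picked colonies, so each is a single clone. UBE2B is the ubiquitin-conjugating enzyme that works with RNF20 and RNF40 to place monoubiquitin on histone H2B (H2Bub1), and its close relative UBE2A was not targeted. The sequenced mutant cells were beating CMs, which only a part of the mutant wells gave, and they were time-matched to wild-type CMs. By the authors' staining, only a part of the cells in beating mutant cultures held NKX2-5 or TNNT2 protein. Most mutant cells had kept brachyury. The mutant libraries thus come from mixed cultures, and CM names their stage. More cells were plated for the mutant lines than for wild type, and differentiation was started at full confluency. Plating number thus differed with genotype, and the 2 cannot be told apart. CMs were selected with lactate in medium without glucose after beating began, a step the earlier stages did not have. The CP to CM comparison thus also sets unselected against selected cultures, and the 2 cannot be told apart. Media changed over the course too, with CHIR99021 first, IWP4 later and insulin only afterwards, so stage and medium cannot be told apart.

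Each table gives, for each transcript, the effect b of a Wald test on the natural log of normalized estimated counts, its standard error, a p-value and a q-value. Only transcripts with a q-value of at most 0.05 are listed, so a transcript described here as listed passed the test, and the verbs rose and fell are used for listed changes only. A transcript was called where the absolute b was also at least log2(1.5), a 1.79-fold change. The authors state a fold limit of 1.5, which on the natural-log scale of b is ln(1.5). The limit used here is thus stricter, and counts that move at ln(1.5) are given at the end. Changes are given on the log2 scale with the standard error (SE), and values above 0 mean more RNA at the later stage or in the mutant. No value per library is in the tables. The error is therefore the SE of the fit, beside the residual SD between the 3 replicates of a group, and whether single libraries of 2 groups overlap cannot be seen. The depth of the libraries is unknown here. Levels are estimated counts recovered from the mean and b, as the mean of the natural logs returned to counts. The 5 stages were brought to 1 scale, that of the CP to CM table, through the stage that neighboring tables share. Where levels of different transcripts are ranked against each other, they are given per kb of transcript, and shares within a gene are given both in counts and per kb. Neighboring comparisons share 3 libraries and are not independent.

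Over the 4 transitions, the 10 genes had 42 listed changes, of which 30 were called. From iPSC to M, 6 transcripts were listed and 2 were called, both lower, where 1.62% of the 68446 transcripts tested were called lower and 1.24% higher. From M to CMes, 9 were listed and 6 called, all 6 higher, against 2.65% called lower and 3.81% higher of 70285 tested. Of 12 listed from CMes to CP, 9 were called higher and 1 lower, against 3.8% called higher and 2.63% lower of 71328 tested. From CP to CM, 15 were listed, with 7 called higher and 5 lower, and the background of 69937 tested was 8.25% higher and 6.99% lower. How many of the 71 annotated transcripts entered each test is not in the tables, so the counts of called transcripts cannot be turned into a share to set against these percentages. The median listed change of these genes was -0.57, 1.51, 1.04 and -0.51 at the 4 transitions in order, beside -0.47, 0.57, 0.40 and 0.63 over all listed transcripts. A gene can carry several of these rows, and AMOTL2 alone gave 5 of the 15 at the last transition. Among listed changes of the 10 genes, the residual SD between replicates ran from 0.11 to 3.05 on the log2 scale with a median of 0.27.

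**Figure D1:**
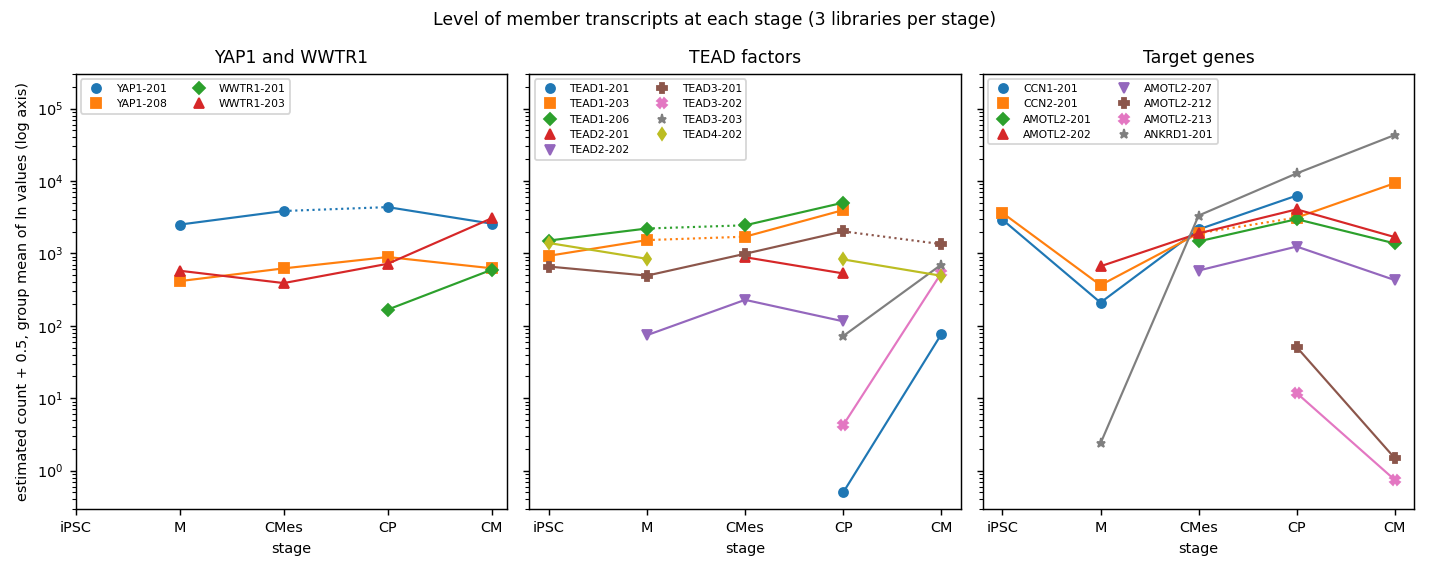
Estimated count plus 0.5 (log axis) of each member transcript at the stages where a table lists it, as the group mean of 3 libraries on 1 scale. Solid lines join stages between which the change is listed, and dotted lines those where it is not. CCN1-201 and CCN2-201 dip at M, ANKRD1-201 climbs from near 2 counts at M to 43216 at CM, and TEAD1-201 and TEAD3-202 appear at CM.

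**Figure D2:**
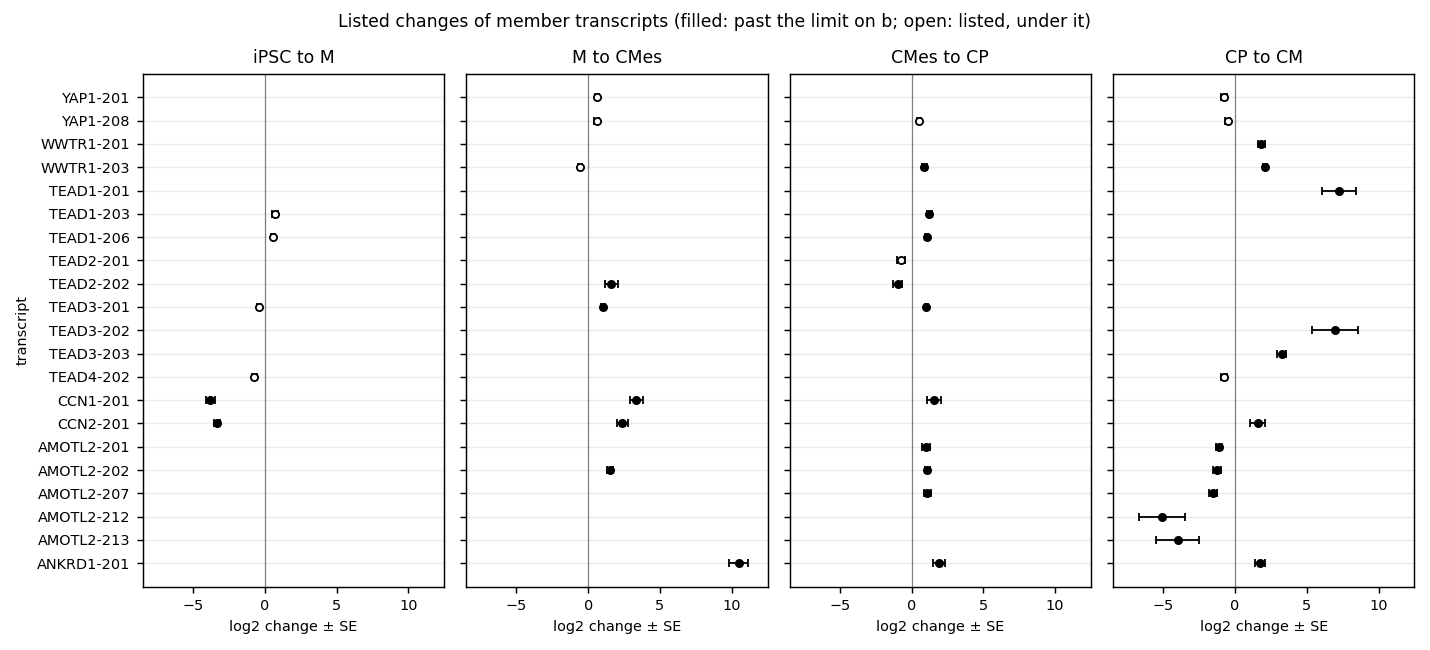
Log2 change with its SE of every listed member transcript at the 4 transitions, with 6 libraries in each comparison. Filled points are past the limit on b, open points are listed but under it. All 6 called changes from M to CMes lie above 0, and from CP to CM the 5 AMOTL2 transcripts lie below 0 while WWTR1, TEAD1-201, TEAD3-202, TEAD3-203, CCN2 and ANKRD1 lie above it.

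The coactivators YAP1 and WWTR1 moved in opposite directions from CP to CM, a step that includes the lactate selection. YAP1-201 (ENST00000282441.10), the reference transcript on chromosome 11 (GRCh38 chr11:102110447-102233424, plus strand), stood at 2500 estimated counts at M, 3853 at CMes, 4359 at CP and 2575 at CM. It rose by 0.62 (SE 0.15, q = 0.000699) from M to CMes and fell by 0.76 (SE 0.18, q = 0.000308) from CP to CM, with a residual SD of 0.14 and 0.13. The step from CMes to CP is not listed, and the linked levels differ there by 0.18. From M to CM the whole course came to 0.04, so the level at CM was close to that at M. YAP1-208 (ENST00000531439.5), which lacks a 48-base exon of YAP1-201 at chr11:102209517-102209564, followed the same course at a lower level, from 414 at M to 621, 891 and 623 at the later stages. It rose by 0.58 (SE 0.17) and 0.52 (SE 0.14) at the middle transitions and fell by 0.51 (SE 0.17, q = 0.0151) from CP to CM. None of these YAP1 changes reached the limit on b, and YAP1 is not listed from iPSC to M.

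WWTR1-203 (ENST00000465804.5, chr3:149517235-149703273, minus strand) fell by 0.57 (SE 0.15) from M to CMes, from 576 to 389 estimated counts. It then rose by 0.89 (SE 0.15) to 719 at CP and by 2.09 (SE 0.15, q = 2.94e-42) to 3060 at CM. Its p-value ranked 260 among all transcripts of the CP to CM table, the lowest of the 10 genes there. WWTR1-201 (ENST00000360632.7), the reference transcript, starts from another first exon, at position 149658025 in place of 149703273, and has a coding length of 400 codons, as WWTR1-203 has. It rose by 1.83 (SE 0.23, q = 1.57e-13), from 167 to 595 counts. Transcripts from both first exons thus rose, and the transcript from the upstream start stood higher at both stages, with 143 and 608 counts per kb against 33.1 and 118. Summed over the listed transcripts of each gene, 2 each, YAP1 stood 7.98 times above WWTR1 per kb at CP, with 1405 against 176, and 1.23 times above it at CM, with 895 against 726. These sums leave out transcripts that are not listed. WWTR1-AS1 is annotated on the opposite strand of WWTR1, and the counting is not stated to use strand, so reads from it cannot be told apart.

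The 4 TEAD genes each had their own course. TEAD1 rose early and again at CP. TEAD1-206 (ENST00000527636.6, chr11:12674421-12944737, plus strand), the reference transcript, went from 1506 estimated counts at iPSC to 2208, 2444 and 5020 at M, CMes and CP. It rose by 0.55 (SE 0.15, q = 0.00983) from iPSC to M and by 1.04 (SE 0.12, q = 2.69e-15) from CMes to CP, the latter called. TEAD1-203 (ENST00000526600.1), a shorter model that starts inside the gene, rose beside it, by 0.72 (SE 0.23) and 1.22 (SE 0.18), from 927 counts at iPSC to 3967 at CP. Neither is listed from M to CMes, where the linked levels differ by 0.15 and 0.16, nor from CP to CM. From iPSC to CP the 2 transcripts came to a total of 1.74 and 2.10.

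Another TEAD1 model was found at CM only among the stages for which a table gives its level. TEAD1-201 (ENST00000334310.10) was at 0 in all 3 CP libraries and had a group mean of 75.8 estimated counts at CM, at least 25.3-fold higher against a floor of 3 counts per library. The fitted change was 7.25 (SE 1.17, q = 1.61e-08), a value that depends on the 0.5 added before the log. This transcript carries a 12-base microexon at chr11:12878889-12878900 and lacks the 174-base exon at chr11:12901940-12902113. Per kb it stood at 24.6, beside 533 for TEAD1-206 at CP, an earlier stage. TEAD1-203 had 4033 or 3835 counts in wild-type CM on the scale of the UBE2B-/- comparison, which leaves 2 possible levels. TEAD1-201 was thus a minor part of TEAD1 RNA.

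TEAD2 was lower at CP. TEAD2-202 (ENST00000377214.8, chromosome 19) rose by 1.62 (SE 0.45) from M to CMes, from 73.8 to 228 estimated counts, and fell by 0.98 (SE 0.30, q = 0.0146) to 115 at CP. TEAD2-201 (ENST00000311227.6) fell by 0.74 (SE 0.25, q = 0.0323) at the same step, from 886 to 529. Of the residual variance of both, 60.7% to 80.3% was technical, which includes the uncertainty of dividing reads between isoforms. TEAD4 was lower at 2 steps. TEAD4-202 (ENST00000359864.7, chromosome 12), the reference transcript, fell by 0.73 (SE 0.15, q = 8.05e-05) from iPSC to M and by 0.75 (SE 0.20, q = 0.00145) from CP to CM, each under the limit on b. Its levels were 1392, 841, 826 and 491 at iPSC, M, CP and CM, and end to end the linked levels differed by -1.5 on the log2 scale. TEAD3-201, the only other TEAD transcript with a single settled level at both ends, gained 1.03.

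TEAD3 changed its isoforms between CP and CM. TEAD3-201 (ENST00000338863.12, chr6:35473597-35497079, minus strand), the reference transcript, had 658 estimated counts at iPSC, 493 at M, 988 at CMes, 2017 at CP and 1344 at CM. It fell by 0.42 (SE 0.14, q = 0.0491) from iPSC to M and rose by 1.00 (SE 0.14, q = 5.13e-11) and 1.03 (SE 0.10, q = 4.06e-21) at the next 2 steps. From CP to CM it is not listed, with a linked difference of -0.59. TEAD3-203 (ENST00000639578.2) rose by 3.27 (SE 0.31, q = 3.28e-24) over that last step, from 71.7 to 699 counts, a 9.68-fold change. TEAD3-202 (ENST00000402886.8), a model annotated as a target of nonsense-mediated decay, rose by 6.97 (SE 1.57, q = 0.000118), from 3.75 to 534 counts, with a residual SD of 1.92.

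The 3 TEAD3 models differ at a pair of alternative exons of 63 bases each. All 3 have another version in the annotation used here than the one quantified. Their exons and lengths, and with them the values per kb, may therefore differ from those of the quantified models. TEAD3-201 uses the exon at chr6:35480312-35480374 and TEAD3-203 the one at chr6:35480060-35480122, and both reading frames have 435 codons. TEAD3-202 has neither of them and also lacks the 65-base exon at chr6:35484560-35484624. The exons are alike in 40 of 63 bases, 63.5%. The first 30 bases of each are shown in the direction of transcription from GRCh38, with capitals at the positions where they differ.
TEAD3-201 exon, chr6:35480345-35480374: gtGtcCagccacAtAcaGgttctagcTCgg
TEAD3-203 exon, chr6:35480093-35480122: gtCtcTagccacTtGcaAgttctagcCAgg
In these stretches 23 of 30 bases are the same, and reads that cross the exon can be assigned to 1 of the transcripts. TEAD3-201 and TEAD3-203 also differ at their ends, with a first exon of 182 against 167 bases and a last exon annotated as 1561 against 266 bases, so a read in the shared parts fits both.

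Summed over the 3 models, TEAD3 had 2093 estimated counts at CP and 2576 at CM. TEAD3-201 held 96.4% of that sum at CP and 52.2% at CM, TEAD3-203 held 3.43% and 27.1%, and TEAD3-202 held 0.179% and 20.7%. The models differ in length, and per kb the sum went from 720 to 1063, with shares of 93.9% and 42.3% for TEAD3-201, 5.95% and 39.2% for TEAD3-203 and 0.191% and 18.4% for TEAD3-202. TEAD3-203 thus stood at 417 per kb at CM against 450 for TEAD3-201. Of the residual variance of TEAD3-203 at this step, 92.2% is technical, which includes the uncertainty of dividing reads between models, and its SE takes this in.

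**Figure D3:**
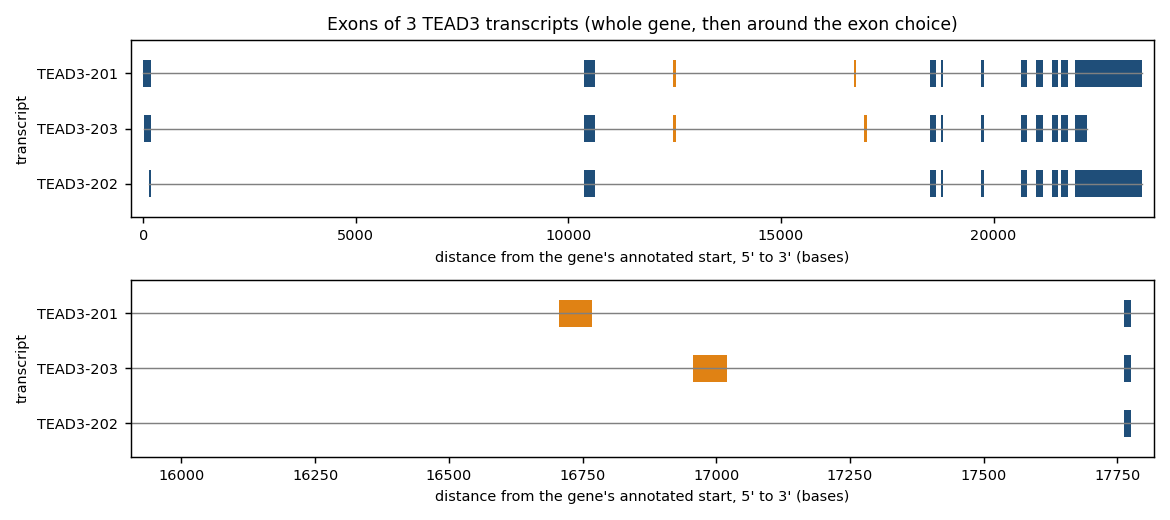
Exons of the 3 listed TEAD3 transcripts by distance from the annotated gene start in bases, for the whole gene above and around the alternative exons below. Orange boxes are the 63-base exons and the 65-base exon, blue boxes all others. TEAD3-201 and TEAD3-203 each hold 1 of the 63-base exons and TEAD3-202 holds neither.

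**Figure D4:**
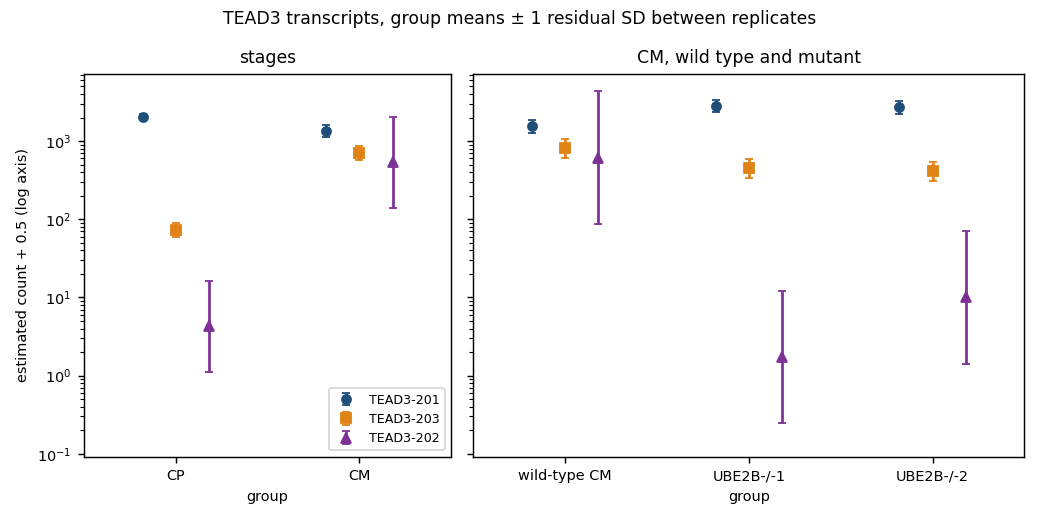
Estimated count plus 0.5 (log axis) of the TEAD3 transcripts at CP and CM (left) and in wild-type and UBE2B-/- CM (right), as group means of 3 libraries with bars of 1 residual SD between replicates. The 2 panels have separate scales. TEAD3-203 stands at 71.7 at CP and 699 at CM, and in both mutant lines TEAD3-201 is above and the other transcripts are below their wild-type level.

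The secreted targets CCN1 and CCN2 had the steepest early fall of the 10 genes. CCN1-201 (ENST00000451137.7, chr1:85580761-85583950, plus strand) went from 2928 estimated counts at iPSC to 209 at M, 2145 at CMes and 6289 at CP. It fell by 3.8 (SE 0.33, q = 1.01e-27), 14-fold, and then rose by 3.35 (SE 0.45, q = 1.49e-11) and 1.55 (SE 0.47, q = 0.0109). CCN1 is not listed from CP to CM, so its CM level is not known here. CCN2-201 (ENST00000367976.4, chr6:131948176-131951372, minus strand), the only annotated transcript of its gene, went from 3629 to 364 at M, 1899 at CMes, 3124 at CP and 9331 at CM. It fell by 3.32 (SE 0.20, q = 3.05e-60) at the first step, and its p-value ranked 4 of the 3315 listed there. It rose by 2.38 (SE 0.37, q = 6.42e-09) from M to CMes and by 1.58 (SE 0.52, q = 0.0159) from CP to CM, while CMes to CP is not listed, with a linked difference of 0.72. At CP, CCN1 stood 1.10 above its iPSC level on the log2 scale, and CCN2 at CM stood 1.36 above its own. Their residual SD was 0.24 to 0.63, and at most 5.19% of that variance was technical. LINC01013 is annotated on the opposite strand of CCN2.

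AMOTL2, an angiomotin-like protein that binds YAP and holds it in the cytoplasm, and is itself a YAP target, climbed to CP and then fell in every listed transcript. AMOTL2-202 (ENST00000422605.6, chr3:134355877-134374447, minus strand) had 664 estimated counts at M, 1891 at CMes, 4060 at CP and 1679 at CM. It rose by 1.51 (SE 0.23, q = 7.12e-09) and 1.10 (SE 0.20, q = 6.23e-07) and fell by 1.27 (SE 0.28, q = 7.22e-05). AMOTL2-201 (ENST00000249883.9), the reference transcript, rose by 1.02 (SE 0.28) from CMes to CP and fell by 1.11 (SE 0.21, q = 3.78e-06) from CP to CM, with 1466, 2972 and 1374 counts. The retained-intron model AMOTL2-207 (ENST00000506326.1) went the same way, up by 1.10 (SE 0.25) and down by 1.54 (SE 0.27), from 580 to 1244 and 428 counts. AMOTL2-212 (ENST00000514516.5), with an upstream first exon at chr3:134375188-134375479, went from 50.3 to 0.989 counts and AMOTL2-213 (ENST00000515172.1) from 11.3 to 0.246. Their fitted changes of -5.09 (SE 1.62, q = 0.0119) and -3.99 (SE 1.5, q = 0.0435) depend on the 0.5 added before the log. At CM the 3 abundant AMOTL2 models stood close to their CMes levels, with linked differences of -0.09 for AMOTL2-201 and -0.44 for AMOTL2-207 from CMes to CM.

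ANKRD1, a muscle ankyrin-repeat protein of the sarcomere and nucleus and a common readout of YAP activity, rose at each of the last 3 transitions. ANKRD1-201 (ENST00000371697.3, chr10:90912096-90921087, minus strand) had 1.88 estimated counts at M, 3333 at CMes, 12743 at CP and 43216 at CM. It rose by 10.48 (SE 0.65, q = 4.13e-55) from M to CMes, the change with rank 7 by absolute size among the 6541 listed there. Since M was near 2 counts, the size of that change rests on few reads and on the 0.5 added. It rose again by 1.93 (SE 0.43, q = 0.000143) and by 1.76 (SE 0.35, q = 7.06e-06). Among the single transcripts with a level at CM it was the highest per kb, with 24143, and CCN2-201 followed with 3991. CCN1, TEAD2 and the main TEAD1 transcripts have no CM level and are not in this order. AMOTL2 and ANKRD1, both known YAP targets, therefore moved in opposite directions from CP to CM, and CCN2 moved with ANKRD1.

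The core of the TEAD binding site, GGAATG or its reverse complement CATTCC, was looked for on both strands of the RefSeq promoter windows (GRCh38.p14, 250 bases before to 50 after the gene start). Of the 10 genes, 7 have a window in that table, and 4 of the 7 hold the motif. It is in 14% of 35116 windows and in the windows of 16.7% of 27305 genes. The matches are shown 5′ to 3′ along the gene, with the motif in capitals. They are matches of letters only, and binding was not measured.
CCN2, chr6:131951524-131951553, minus strand: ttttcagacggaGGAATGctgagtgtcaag
CCN2, chr6:131951455-131951483, minus strand: gtggggaGGAATGcgaGGAATGtccctgt
ANKRD1, chr10:90921290-90921319, minus strand: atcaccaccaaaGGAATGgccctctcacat
ANKRD1, chr10:90921198-90921227, minus strand: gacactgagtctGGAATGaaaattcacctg
YAP1, chr11:102110273-102110302, plus strand: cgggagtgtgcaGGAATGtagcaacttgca
AMOTL2, chr3:134374499-134374528, minus strand: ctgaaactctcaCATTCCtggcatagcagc
CCN2 holds 3 copies, 169, 104 and 95 bases before its start, and ANKRD1 holds 2, at 220 and 128 bases before it. YAP1 holds 1 at 162 bases and AMOTL2 1 at 69 bases. The motif-bearing genes CCN2 and ANKRD1 rose from CP to CM while AMOTL2 and YAP1 fell. From M to CMes all 4 rose, by 2.38 (CCN2), 10.48 (ANKRD1), 1.51 (AMOTL2-202) and 0.62 (YAP1-201). Of the genes with a window but no motif, TEAD2 and TEAD3 rose at that step as well and WWTR1 fell. Whether the motif goes with a direction was not tested.

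Other genes of the pathway were counted from lists, each gene by its listed transcript with the highest mean. Counted in the same way over all genes, 31.5%, 26.0%, 24.1% and 35.5% of the genes listed were called lower at the 4 transitions in order, and 23.0%, 36.6%, 29.2% and 40.0% higher. How many genes were tested is not in the tables, so these are shares of listed genes. Of the 7 genes of the kinase module, which holds YAP and TAZ back, few were listed. The numbers were 1, 2, 2 and 3 at the 4 transitions in order. LATS2, a YAP kinase and itself a YAP target, fell by 0.91 (SE 0.13, q = 2.69e-10) from iPSC to M and rose by 0.90 (SE 0.15, q = 2.57e-07) from M to CMes, the same order of directions as CCN1 and CCN2. No gene of the module was called from CMes to CP or from CP to CM, where the listed changes stayed under the limit on b. SAV1 fell by 0.41 (SE 0.10, q = 0.00177) and 0.83 (SE 0.14, q = 2.29e-07) at these steps. LATS2 rose by 0.67 (SE 0.14) and 0.45 (SE 0.13), and STK3 rose by 0.49 (SE 0.15) at the last. Of the 19 upstream regulators, 5 were called higher and 0 lower both from M to CMes, of 7 listed, and from CMes to CP, of 10 listed, and 4 higher and 5 lower of 14 listed from CP to CM. AMOT, an angiomotin that binds YAP, rose by 0.86 (SE 0.27, q = 0.0396), 1.05 (SE 0.21) and 2.74 (SE 0.13, q = 2.18e-97) and then fell by 2.30 (SE 0.39, q = 7.54e-08), from 4120 to 834 counts, the course of AMOTL2. AMOTL1, its relative, fell by 1.14 (SE 0.34, q = 0.00642) from CP to CM. WWC3, FRMD6 and AJUBA, scaffold proteins of the pathway, each rose by 1.21 to 2.12 at the middle transitions, where TEAD3-201 also rose. FAT4, an atypical cadherin, fell by 0.97 (SE 0.19) from iPSC to M and rose by 1.18 (SE 0.43, q = 0.0343) from CP to CM. SCRIB, a polarity protein, rose by 0.88 (SE 0.28) at the first step, and another of its transcripts fell by 6.86 (SE 1.99) at the last, to 2.46 counts.

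The list of 18 other YAP targets had 4 genes called lower and 0 higher of 6 listed from iPSC to M, 8 higher and 1 lower of 10 listed from M to CMes, 11 higher and 0 lower of 15 listed from CMes to CP, and 4 higher and 5 lower of 10 listed from CP to CM, to be read beside the shares over all listed genes above. LATS2 stands in this list too, and PTPN14 is in it and among the upstream regulators. The median listed change was -1.04, 1.02, 1.40 and -0.43 at the 4 steps, beside -0.47, 0.57, 0.40 and 0.63 over all listed transcripts. AXL, a receptor tyrosine kinase, followed CCN1, with -1.61 (SE 0.20), 1.48 (SE 0.21) and 1.54 (SE 0.13), and then fell by 1.65 (SE 0.31, q = 1.74e-06) at CM. CCDC80, a matrix protein, fell by 2.29 (SE 0.33), rose by 4.77 (SE 0.31) from CMes to CP and fell by 1.73 (SE 0.55). CRIM1 fell by 1.17 (SE 0.13) and rose by 0.93 (SE 0.15) and 1.41 (SE 0.16). MYOF rose by 6.85 (SE 2.04) and 2.86 (SE 0.31) through different transcripts and fell by 1.30 (SE 0.20) from CP to CM. ARHGEF17, NUAK2 and TGFB2 rose at both middle steps, ASAP1 and GADD45A rose at both late ones, and RBMS3 fell by 1.11 (SE 0.34) before rising by 2.99 (SE 0.30) and 0.90 (SE 0.28). IGFBP3 rose by 5.12 (SE 0.55) from CMes to CP. Of the 4 VGLL cofactors, which compete with YAP for TEAD proteins, 1 was called higher and 1 lower from CMes to CP and 2 higher from CP to CM. VGLL3 fell by 1.45 (SE 0.22) from CMes to CP and rose by 4.22 (SE 0.52, q = 4.18e-14) from CP to CM, from 72.2 to 1350 counts. The other called changes, of genes named here after their values were seen, were a rise of VGLL1 by 7.06 (SE 0.98, q = 3.6e-11) from CMes to CP, from 0.397 to 119 counts, and one of VGLL4 by 1.03 (SE 0.14) from CP to CM.

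Marker genes of cell types moved with these stages. From CP to CM all 8 cardiomyocyte markers were called higher and their summed level went from 10424 to 440996 counts, with TNNI3 listed at 0 at CP. Of the 8 mesenchymal markers 5 were called lower and 2 higher, with DCN not listed, and their sum went from 42006 to 10356. COL1A1 entered this sum through a minor transcript, with 45.4 and 135 counts. Its main transcript, at 33500 counts at CP in the CMes to CP comparison, is not listed from CP to CM and is left out. All 4 smooth muscle markers were called higher at this step, with sums of 7968 and 24342, and both listed endothelial markers, KDR and TEK, were called lower, with 4949 and 637. All 4 listed endoderm and epithelial markers were called lower, with 28685 and 6359, and all 3 listed pluripotent markers fell. From CMes to CP, 5 mesenchymal markers were called higher and 1 lower, with sums of 6916 and 80896, and all 6 listed cardiomyocyte markers were called higher. The 5 listed endoderm and epithelial markers rose as well, 3 of them called, with sums of 39305 and 81052, among them AFP by 10.67 (SE 0.65) and APOA1 by 6.18 (SE 0.63). Each sum covers the transcripts listed at its own step, which differ between steps, so sums of neighboring steps do not join into 1 course. An abundant transcript that is not listed is left out of its sum. KRT8 entered from CP to CM with 681 counts at CP, while its transcript of 43000 counts at CP is not listed at that step. The part of these marker changes in the changes of the 10 genes was not tested. In bulk RNA, fewer cells of a type and less RNA per cell cannot be told apart.

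The UBE2B-/- comparison asked what CMs of the mutant lines express differently from wild-type CMs. UBE2B itself had 1 listed transcript (ENST00000499038.2), which was lower by 1.91 (SE 0.53, q = 0.0113) in UBE2B-/-1, with 47.1 against 179 estimated counts, and the value recovered for UBE2B-/-2, where it is not listed, was -1.57, with 60.0 counts. An inactivating mutation need not lower RNA, so this is a limited check of the labels. Both lines were fitted with the same 3 wild-type libraries, 9 in all, and share that control with the CP to CM comparison. Of the 10 genes, 6 have no listed transcript in either line, namely WWTR1, TEAD2, TEAD4, CCN1, CCN2 and AMOTL2. UBE2B-/-1 had 3 listed transcripts, 1 called higher and 1 lower, where 2.18% of the 65457 tested were called higher and 1.72% lower. UBE2B-/-2 had 4, with 1 called higher and 2 lower, against 2.46% and 1.53%. No transcript of the 10 genes was called in both, where 1.52% of all tested were called higher and 0.909% lower in both. By the listing limit of Sleuth alone 1 was shared, TEAD3-201, and it also passed an absolute b of at least ln(1.5) in both lines. At an unadjusted p under 0.05 in each line the count was 4, namely TEAD3-201, TEAD3-202, TEAD3-203 and ANKRD1-201, which are also the 4 with a value for both lines. Since the lines share their wild-type libraries and these transcripts were listed for at least 1 line, a like sign in both lines is not independent support.

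TEAD3-201 was higher in both mutant lines. It had 1550 estimated counts in wild-type CM, 2816 in UBE2B-/-1 and 2698 in UBE2B-/-2, on the scale of this fit. It rose by 0.86 (SE 0.22, q = 0.00611) in the first and by 0.80 (SE 0.22, q = 0.0132) in the second, where it missed the limit on b, with a residual SD of 0.27. The mean of both was 0.83 (SE 0.19, q = 0.000925), and the lines differed by -0.06 (SE 0.22, q = 1.0 over the 1992 transcripts listed for both lines). From CMes to CP the same transcript had changed by 1.03.

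The other TEAD3 isoforms were lower. For a transcript listed for 1 line only, the change in the other line was recovered from the variance columns, with the wild-type level of the CP to CM table deciding between 2 solutions. TEAD3-203 had 806 counts in wild-type CM, 446 in UBE2B-/-1 and 410 in UBE2B-/-2. It fell by 0.97 (SE 0.32, q = 0.0485) in UBE2B-/-2, and the recovered value in UBE2B-/-1, where it is not listed, was -0.85. TEAD3-202 had 616, 1.22 and 9.49 counts, a change of -8.48 (SE 2.30, q = 0.00966) in UBE2B-/-1 and a recovered -5.95 in UBE2B-/-2, where it is not listed, with a residual SD of 2.81. A difference between the lines was not shown for either isoform, with values of -0.12 (SE 0.32) and 2.54 (SE 2.30), UBE2B-/-2 minus UBE2B-/-1. TEAD3-201 held 52.1% of the summed TEAD3 counts in wild-type CM, 86.3% in UBE2B-/-1 and 86.5% in UBE2B-/-2, and TEAD3-203 held 27.1%, 13.7% and 13.2%. The sums themselves were 2973, 3263 and 3117 counts. Per kb, TEAD3-201 held 42.3%, 78.0% and 78.5% and TEAD3-203 39.2%, 22.0% and 21.2%, of sums of 1226, 1210 and 1152. In wild-type cells TEAD3-201 held 96.4% of the counts at CP, and these values come from fits that share the wild-type CM libraries.

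**Figure D5:**
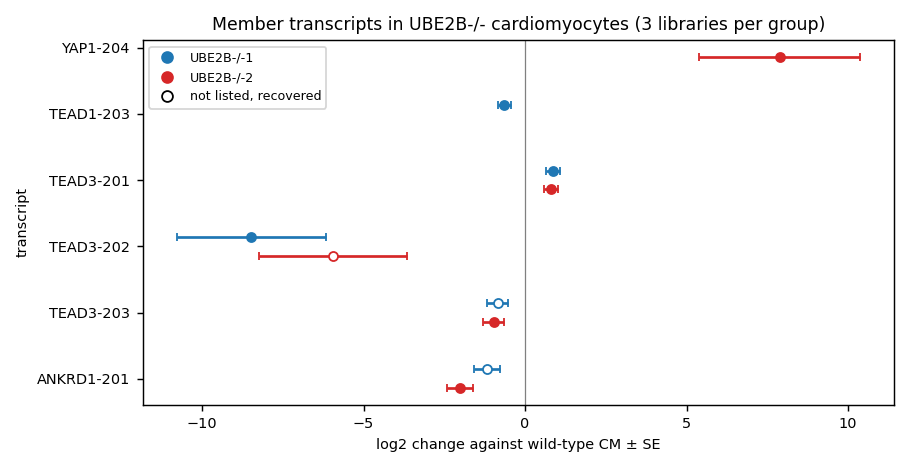
Log2 change against wild-type CM with its SE of the 6 member transcripts listed for at least 1 UBE2B-/- line, with 3 libraries per group. Open points are values recovered for the line in which the transcript is not listed, and YAP1-204 and TEAD1-203 have none. TEAD3-201 lies above 0 and TEAD3-203, TEAD3-202 and ANKRD1-201 lie below 0 in both lines.

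ANKRD1 fell in UBE2B-/-2, and the value recovered for UBE2B-/-1 had the same sign. ANKRD1-201 had 49869 estimated counts in wild-type CM, 22206 in UBE2B-/-1 and 12392 in UBE2B-/-2. It fell by 2.01 (SE 0.40, q = 0.000107) in UBE2B-/-2, 4.02-fold, with a residual SD of 0.50 of which 0.0429% of the variance is technical. The recovered change in UBE2B-/-1 was -1.17 (SE 0.40), which did not pass the adjustment and is not listed. The lines differed by -0.84 (SE 0.40, q = 0.923 over the 3041 transcripts with a value for both lines), so a difference between them was not shown. From CP to CM ANKRD1-201 had risen by 1.76.

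The other listed changes were in 1 line each. TEAD1-203 fell by 0.64 (SE 0.20, q = 0.0424) in UBE2B-/-1, under the limit on b. For UBE2B-/-2 the tables leave 2 possible values, -0.43 and -0.21, both of the same sign. YAP1-204 (ENST00000526343.5), a coding YAP1 model of 7 exons, was listed for UBE2B-/-2 with 7.89 (SE 2.49, q = 0.0367). Its wild-type level was under 1 count in either solution, its level in UBE2B-/-2 was 263 or 118 and that in UBE2B-/-1 was 4.66 or 25. With a residual SD of 3.05 the replicates were far apart, and the abundant models YAP1-201 and YAP1-208 are not listed for either line.

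Of the 46 other pathway genes, 13 were listed in at least 1 line and 5 were called in both, 38.5% of those listed, beside 39.3% of the 3194 genes listed in at least 1 line over all genes. AMOTL1 rose by 0.96 (SE 0.27, q = 0.0165) and 1.42 (SE 0.27, q = 4.15e-05), and SCRIB by 6.23 (SE 1.26) and 4.47 (SE 1.26). IGFBP3 rose by 2.05 (SE 0.45, q = 0.00067) and 2.39 (SE 0.45, q = 3.08e-05). AXL, with 2.11 (SE 0.69) and 1.29 (SE 0.34), and MAP4K4, a kinase upstream of LATS1 and LATS2, with 1.67 (SE 0.54) and 7.62 (SE 1.74), were called through different transcripts in the 2 lines. Of the 18 other YAP targets 2 were called higher in UBE2B-/-1, of 2 listed, and 3 in UBE2B-/-2, of 5 listed, with 0 lower in either, where 46.7% and 51.7% of all listed genes were called higher. ANKRD1 thus moved the other way from the called genes of that list. No kinase-module gene was called in either line, and no VGLL gene was listed.

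Marker genes moved in these libraries too. Of the 8 cardiomyocyte markers, 5 were called lower in UBE2B-/-1 and 6 in UBE2B-/-2, with 0 higher. Over the 6 with values for every group, the sum was 133418 counts in wild type, 38612 in UBE2B-/-1 and 31939 in UBE2B-/-2. MYH7 and TNNI3 are not listed for either line. MYH6 and MYL7 entered through transcripts other than those counted from CP to CM. The transcripts counted there for MYH7, MYL7 and MYH6 reached 193000, 80000 and 61500 counts at CM. The sum thus leaves out the most abundant cardiomyocyte transcripts and does not give the change of the whole. Of the 8 mesenchymal markers, 3 and 5 were called higher and 0 lower, with POSTN and THY1 not listed for either line. The sum over the 6 with values was 10599, 112906 and 254488, with the listed PDGFRA transcript at 0 in wild type. The part of these differences in the changes of TEAD3 and ANKRD1 was not tested. ANKRD1 is expressed by cardiomyocytes, and its change of -2.01 in UBE2B-/-2 stood beside a median of -1.90 over the 6 listed cardiomyocyte markers of that line. These ranged from -1.20 (SE 0.35) for MYL7 to -3.45 (SE 0.66) for NPPA. In UBE2B-/-1 the recovered -1.17 of ANKRD1-201 stood beside a median of -1.57 over 5 listed markers. Both medians cover only markers that passed the listing limit, without MYH7 and TNNI3 and without the most abundant models of MYH6 and MYL7. Neither is therefore the change of cardiomyocyte markers as a whole. A transcript of the smooth muscle marker CNN1, with 726 counts in wild type, was lower in both lines. The CNN1 transcript that reached 6500 counts at CM is not listed for them, nor are ACTA2, TAGLN and MYH11. A transcript of the progenitor marker GATA4, with 544 counts in wild type, was higher, by 1.49 (SE 0.32) and 1.82 (SE 0.32). It is not the GATA4 transcript counted at the stages, and ISL1, NKX2-5, TBX5 and HAND2 are not listed for either line. Single transcripts of KRT8, lower in both lines, and of KDR, higher in UBE2B-/-2, were also not those counted at the stages. No pluripotent or early mesoderm marker was listed, although the authors saw brachyury protein, the product of TBXT, in most mutant cells at this stage.

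TEAD3-201 was the member listed in the most tables, 5 of 6. Among the 56 transcripts listed in those same 5 tables, the 5 genes with the nearest pattern of log2 changes were MINK1, at a Euclidean distance of 0.74, ACTN4 at 0.76, CHPF2 at 1.02, and AGRN and STK10 at 1.21 each. They are named for likeness of values only.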

How the data were processed

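Poly-A RNA of 21 libraries was compared, 15 wild type and 6 UBE2B-/-. Reads were trimmed by the authors (FASTX-Toolkit) and assigned to transcripts of hg38 with Kallisto, and the authors then ran the Wald test in Sleuth. They deposited 6 result tables with p-values and q-values (Benjamini-Hochberg over all transcripts tested), effects, standard errors and means of estimated counts as natural log values after adding 0.5, and variance estimates, deposited as scores in squared natural-log units. The tables hold 0 columns of per-sample values, so depth per library is unknown and precision is the standard error of the fit, which combines a variance smoothed over transcripts of like level with the technical variance of the quantification. Groups followed the sample labels. Libraries came from separate cultures of 1 cell line.

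The p-value was the normal p of b over its standard error in every row, and the tables of both lines share their standard errors, as from 1 fit of 9 libraries. How many transcripts were tested follows from the ratio of q-value to p-value at each rank. Effects were divided by the natural log of 2 to give log2 changes. Calls took a q-value of at most 0.05 and absolute b of at least log2(1.5). Tables were linked by the median offset of the shared stage, between -0.1215 and 0.1431 on the natural-log scale. Where only 1 line lists a transcript, its change in the second line was solved from the variance columns and the wild-type mean, taken where both came within 0.1. This gave 1049 of 2238 transcripts. The number tested and the pair of solved values were checked on simulated data without technical variance. The choice between the 2 values by the wild-type mean was not tested there, and the check of the offset only returned the offset put in. Exons came from GENCODE 44, where 14 of the 22 transcripts have the version of the tables and 8 another, so exons of the latter may differ from those quantified. Promoter windows came from RefSeq. Members, gene lists and tests were chosen with earlier results of these data known. Named genes were all listed transcripts of the members, other pathway genes called in at least 2 transitions or in both lines, and the 5 genes nearest in pattern to the member listed most often. Alternatives were other limits on b and q, a t distribution, Bonferroni adjustment, counting by gene and another offset. Python 3.11.15 with numpy 2.4.6, pandas 2.3.3 and scipy 1.17.1 was used.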

Additional observations from a re-analysis of the deposited data

Results flagged for a closer look

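ANKRD1-201 differed between the UBE2B-/- lines by -0.84 on the log2 scale (SE 0.40), UBE2B-/-2 minus UBE2B-/-1, which is 2.08 standard errors in size with 3 libraries per line. It was looked at again because its change was listed for 1 line only, with -2.01 in UBE2B-/-2 and a recovered -1.17 in UBE2B-/-1. The difference did not pass adjustment over the 3041 transcripts with a value for both lines (q = 0.923), of which 8 did.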

How the results depend on the processing

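Counts of called transcripts of the 10 genes moved with the limits, from 2, 6, 10 and 12 at the 4 transitions, 2 and 3 in UBE2B-/-1 and UBE2B-/-2, and 0 in both lines. A t distribution on 4 or 6 residual degrees of freedom, which ignores the variance shared between transcripts, left 0 called at the first 3 transitions and in each line, and 1 (WWTR1-203) from CP to CM. Unadjusted, 6, 9, 12, 14, 3 and 4 of the listed transcripts had a p under 0.05 with it. Bonferroni adjustment gave 5 at the CMes to CP step, 7 at the CP to CM step, 0 in UBE2B-/-1 and 1 in UBE2B-/-2. Counting genes gave 6 at each of these steps and 1 in UBE2B-/-1. With absolute b of at least ln(1.5), 4 were called from iPSC to M and 1 in both lines, and with no limit on b 6 and 1. A q-value of at most 0.01 left 1 in UBE2B-/-2. Of the 35 called changes, 20 kept their call under Bonferroni adjustment and 15 lost it. The other offset left all 69 levels within 0.01 on the natural-log scale. No paired analysis was possible because the tables hold no value per library, and for the same reason no replicate could be left out.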
